A study of Mus musculus with 20 samples.

Results

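The comparison was of livers from mice given benzo(a)pyrene (BaP) at 75 mg/kg/day with livers from mice given 25 mg/kg/day, the highest and the lowest exposed dose. It used the 5 arrays labelled 75 mg/kg (replicates 16 to 20) and the 5 labelled 25 mg/kg (replicates 6 to 10) of the 20 arrays of the series, chosen by label alone, so that no control array entered either mean. All animals were male Muta™Mouse (transgenic strain 40.6, which carries a bacterial *lacZ* reporter for mutations), 25 weeks of age, gavaged with BaP in olive oil over 28 days, with livers taken 3 days after dosing ended. Each array held the liver RNA of 1 mouse in the Cy5 channel and a universal mouse reference RNA, pooled from 11 cell lines, in the Cy3 channel. The values below are log2 ratios of liver over reference, and a log2 difference is the mean ratio at 75 minus that at 25 mg/kg/day. The labels give 1 dose to each array and do not say whether animals shared a cage or a litter, so p-values measure the spread between these samples.

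BaP is a polycyclic aromatic hydrocarbon that enters cells, binds the aryl hydrocarbon receptor and so raises the cytochrome P450 enzymes of family CYP1, which oxidize it. Some of the products bind DNA as bulky adducts. Bulky adducts stall replication and transcription, and the cell answers through p53, a transcription factor whose targets halt the cell cycle, repair DNA or start cell death. The liver is the main site of BaP metabolism, and besides hepatocytes it holds sinusoidal endothelial cells, Kupffer cells, stellate cells and bile duct cells.

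On the 10 arrays, 52.98 to 61.42% of liver-channel spots stood well above background, at a median signal over background of 1.40 to 1.60. The 25 and 75 mg/kg/day arrays lay in pairs on 5 slides: replicates 9 and 17 on slide 1, 8 and 18 on slide 2, 10 and 16 on slide 3, 6 and 20 on slide 4, and 7 and 19 on slide 5. On every slide the 25 mg/kg/day array was at position 2 and the 75 mg/kg/day array at position 4, so dose and position on the slide cannot be told apart in any difference given here. Defining hepatocyte transcripts were high on all 10 arrays, *Alb* (albumin) at 3.71 to 4.61 and *Apoa1* (apolipoprotein of HDL) at 4.64 to 5.27. The source name of the samples says lungs while the tissue label and the study's own account say liver, and the samples were taken as liver. Of 14 lung epithelium markers on the array 9 were present, with a mean ratio of 0.29 to 0.53 on the arrays at 25 and 0.26 to 0.61 on those at 75 mg/kg/day. Of these, *Sftpd*, *Hopx*, *Lamp3* and *Napsa* were well above background on all 10 arrays, *Sftpa1* on 9, *Scgb3a1* on 8, *Scgb1a1* on 3, and *Ager* and *Muc5b* on 0. The surfactant gene *Sftpd* read 1.19 to 2.68 on these arrays, and *Hopx* read 3.25 to 3.67 at 25 mg/kg/day. The defining lung markers *Sftpb*, *Sftpc* and *Nkx2-1* were not present, nor were *Foxj1* and *Cldn18*.

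More transcripts were higher than lower at 75 mg/kg/day. Of 27346 present probes, 15 were called higher than at 25 mg/kg/day (0.0549%) and 0 lower (0%) by limma over all 20 arrays, where a call needs both a fold change over 1.5 and an adjusted p below 0.05. The 15 probes belong to 14 genes: *Cyp3a44*, *Ltc4s*, *Marco*, *Cplane1*, *1700007K13Rik*, *Ddit4l* (2 probes), *Cdkn1a*, *Endou*, *Ccnd1*, *Phlda3*, *Eda2r*, *Mmrn2*, a Ly-6C transcript and *Mapkapk3*. Counted by gene, with the brightest probe standing for each gene that has a symbol, 10 of 12986 were called higher (0.077%). A fold change over 1.5 at any p was found for 139 probes higher and 49 lower. Before adjustment 612 probes had a p under 0.05, fewer than the 1367.3 that chance gives for this number of probes, and by gene 217 were higher (1.67%) and 107 lower (0.824%). The 5 arrays at 75 all lay above the 5 at 25 mg/kg/day for 65 genes (0.501%) and all below for 23 (0.177%). On all 5 slides the 75 mg/kg/day array was the higher of the pair for 659 genes (5.07%) and the lower for 422 (3.25%). All 15 called probes had groups that did not overlap and were higher on 5 of 5 slides. A call needs a wide gap between these same arrays, which makes both likely, so neither is independent evidence.

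**Figure D1:**
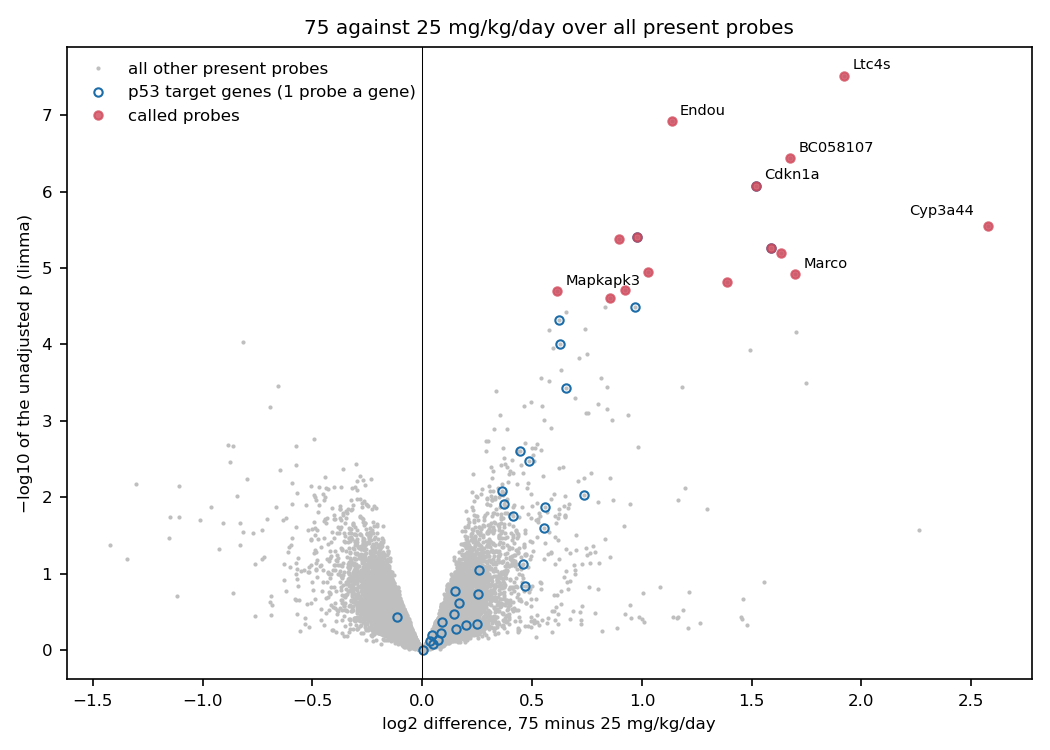
The log2 difference between 75 and 25 mg/kg/day (horizontal) is plotted against −log10 of the unadjusted limma p (vertical) for each of the 27346 present probes. The 15 called probes (red) all lie on the side of higher ratios at 75 mg/kg/day, and most of the p53 target genes (blue rings) lie to the right of 0.

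The number of calls depended on single arrays and on the treatment of slides. Leaving out an array gave between 4 and 21 higher transcripts: 8 without replicate 6, 9 without 7, 5 without 9, 4 each without 10, 17 or 18, and 21 without 16. *Cdkn1a*, *Ltc4s*, *Cplane1* and *Endou* were called whichever array was left out. With slide as a fixed block 21 transcripts were called higher, the same 15 among them, and 14 genes by their brightest probe (0.108%). With only the 10 arrays in the fit 6 were called (*Ltc4s*, *Endou*, *Cplane1*, *Mmrn2*, *Cyp3a44* and *Psrc1*, the last not among the 15), and with those arrays and a slide block together 0 were called by limma, although 1727 probes had an unadjusted p under 0.05 there.

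**Figure D2:**
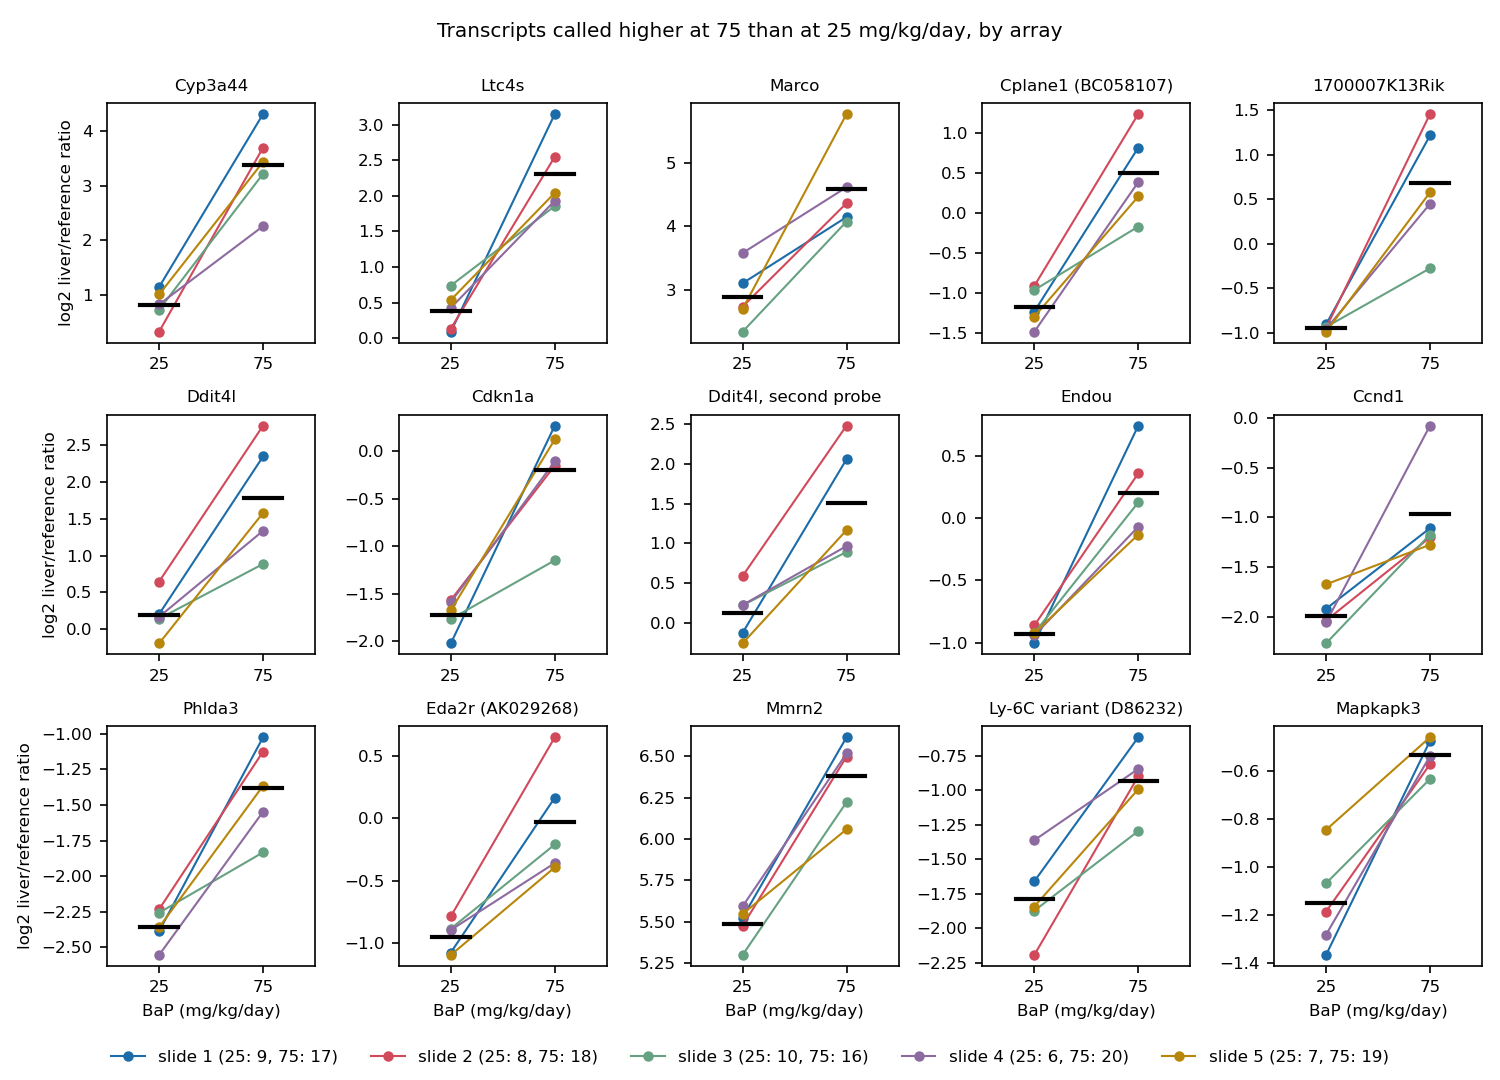
Log2 liver/reference ratios (vertical axes, scaled by panel) of the 15 called probes are shown on each array at 25 and 75 mg/kg/day (horizontal axes), with lines joining the arrays of a slide and black bars at the group means. Every line rises, and in each panel the lowest point at 75 mg/kg/day lies above the highest at 25 mg/kg/day. The probes were called for the gap between these arrays, which makes this likely.

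Known p53 targets formed the largest recognizable group among the higher transcripts. *Cdkn1a*, on chromosome 17, encodes an inhibitor of cyclin-dependent kinases and is the classical arrest target of p53. Its ratios at 25 mg/kg/day were -1.59, -1.67, -1.57, -2.02 and -1.76 on replicates 6 to 10. At 75 mg/kg/day they were -1.15, 0.27, -0.15, 0.12 and -0.11 on replicates 16 to 20. The groups did not overlap, and replicate 16 stood below the other 75 mg/kg/day arrays and nearest to the lower dose. The difference was 1.52 (SE 0.22, 95% interval 1.06 to 1.97, a fold of 2.86, adjusted p = 0.00571 by limma). On the 5 slides it ran from 0.62, on slide 3 with replicate 16, to 2.29. The call was lost with the 10 arrays alone (adjusted p = 0.0776) and with the liver channel alone (0.121).

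*Cdkn1a* is also the single called gene whose promoter window held a match to the p53 consensus, and the window is therefore shown. RefSeq windows from 250 bases before to 50 after the start (assembly GRCm38.p6) were searched on both strands for the p53 consensus, 2 copies of its 10-base motif at most 13 bases apart. The window spans a RefSeq start of *Cdkn1a* on the plus strand, and the capitals mark the match, which begins at position -73 from that start. Whether the transcript that the probe reports starts there was not tested. The 10 bases after the capitals, tgacatgttc, miss the motif only in their first letter and stay in lower case. The capitals therefore show the strict match and not every similar stretch nearby.

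Cdkn1a chr17:29090729-29091028: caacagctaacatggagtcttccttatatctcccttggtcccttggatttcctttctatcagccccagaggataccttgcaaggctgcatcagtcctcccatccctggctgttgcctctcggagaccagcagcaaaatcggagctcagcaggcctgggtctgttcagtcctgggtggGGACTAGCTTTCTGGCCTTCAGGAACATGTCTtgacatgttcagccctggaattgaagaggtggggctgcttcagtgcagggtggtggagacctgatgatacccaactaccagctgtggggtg

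A match was found for 20 of 27025 genes with a window (0.074%), 1 of the 11 called genes with a window, and 1 of 26 genes of the p53 list. No window was at hand for *Ccnd1*, *Endou* and *Mmrn2*. The core of the aryl hydrocarbon receptor element, GCGTG on either strand, was in 35.2% of all genes' windows, in 5 of the 11 called genes and in 6 of 8 genes of the aryl hydrocarbon receptor battery. A match describes letters in the window and is no evidence of binding.

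*Ddit4l*, on chromosome 3, encodes a relative of a DNA damage-induced inhibitor of the growth kinase mTOR. Its brightest probe read 0.17, -0.19, 0.65, 0.21 and 0.14 on replicates 6 to 10 and 0.89, 2.35, 2.76, 1.58 and 1.34 on replicates 16 to 20. Replicate 16 was again the lowest of its group, still above the highest 25 mg/kg/day array, replicate 8. The difference was 1.59 (SE 0.26, adjusted p = 0.0185 by limma). A second probe was also called at 1.39 (SE 0.25, adjusted p = 0.0352), while the dimmest of its 3 probes differed by 0.84 (SE 0.21, adjusted p = 0.42). The call of the brightest probe was lost without any of replicates 6, 7, 9, 10, 17 and 18, the highest adjusted p being 0.0808 without replicate 17, and with the 10 arrays alone (0.287).

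*Phlda3*, on chromosome 1, encodes a membrane-binding repressor of the survival kinase Akt. It was the steadiest of these genes at the lower dose, at -2.55, -2.36, -2.23, -2.39 and -2.26, and read -1.83, -1.02, -1.12, -1.37 and -1.55 at 75 mg/kg/day. All arrays of the higher dose lay above all of the lower, with replicate 16 the lowest. The difference was 0.98 (SE 0.16, a fold of 1.97, adjusted p = 0.0163 by limma). Without replicate 17 the adjusted p was 0.0738, and without 6, 9, 10 or 18, with the 10 arrays alone (0.0776) and with ratios scaled between arrays (0.0666) the call was lost as well.

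*Eda2r*, reported by a probe that the array names only as AK029268, encodes a receptor of the TNF receptor superfamily. It read -0.90, -1.10, -0.79, -1.08 and -0.89 at 25 mg/kg/day and -0.21, 0.17, 0.65, -0.39 and -0.36 at 75 mg/kg/day. Replicates 17 and 18 were the highest arrays, as they were for *Ddit4l* and *Phlda3*. Its difference of 0.92 (SE 0.17, adjusted p = 0.0393 by limma) lost its call without any 1 of replicates 6 to 10, 17 or 18, the highest adjusted p being 0.181 without 17. It was also lost with the 10 arrays alone (0.336), without the presence filter (0.0587) and with ratios scaled between arrays (0.0666). *Eda2r* is on the p53 list, but its probe with a symbol was not present, so this probe is in none of the counts that follow.

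Across the p53 list, 33 of 36 genes were present and 32 of them were higher at 75 than at 25 mg/kg/day, with a median difference of 0.36, where all 12986 genes had a median of 0.01 and 7052 were higher. The list was drawn up with results of these samples known and is not independent evidence of its direction. Of its genes 3 were called (*Cdkn1a*, *Ddit4l* and *Phlda3*), 7 had groups that did not overlap, 15 were higher on all 5 slides and 15 had an unadjusted p under 0.05 and a higher ratio. The shares over all genes were 0.077% called higher, 0.501% higher without overlap, 5.07% higher on all 5 slides and 1.67% with such a p. The list's median was 0.18 to 0.61 on the single slides and 0.28 to 0.41 under the other settings. The mean ratio of the 33 genes was -0.68 to -0.57 on the arrays at 25 and -0.38 to -0.05 on those at 75 mg/kg/day, so that the arrays of the groups did not overlap.

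Genes of the list short of the threshold were ordered by role. Among arrest and feedback genes, *Psrc1*, which encodes a spindle protein, differed by 0.97 (SE 0.18, adjusted p = 0.0528 by limma) without overlap of the groups, although its other 2 probes differed by 0.15 and 0.07. *Btg2*, an antiproliferative gene, differed by 0.65 (SE 0.15, adjusted p = 0.275) without overlap. *Ccng1*, which encodes a cyclin of the p53 feedback, read -1.75 to -0.58 at 25 and -1.15 to 0.18 at 75 mg/kg/day, a difference of 0.74 (SE 0.26) with overlap. *Mdm2*, the ubiquitin ligase that degrades p53, differed by 0.41 (SE 0.16, adjusted p = 1). These genes had intervals above 0 and were higher on 5 of 5 slides, but none passed the adjustment over all probes in the fit over all 20 arrays. *Psrc1* passed with the 10 arrays alone (adjusted p = 0.0465), a random slide block (0.0208), the liver channel alone (0.0108), array weights (0.0121) and without replicate 19 (0.0299), and *Btg2* with a random slide block (0.0462) and array weights (0.0356).

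*Zmat3*, which encodes a zinc finger RNA-binding protein, read -1.93 to -1.47 at the lower and -1.36 to -0.81 at the higher dose without overlap, and differed by 0.63 (SE 0.13, adjusted p = 0.111 by limma, 0.0291 with a random slide block and 0.0345 with array weights). *Aen*, a nuclease that takes part in cell death, differed by 0.62 (SE 0.12, adjusted p = 0.0687), and its only overlap was of replicate 16, at 0.27, with 25 mg/kg/day replicate 7, at 0.30. The adjusted p of *Aen* was 0.00248 without replicate 16, 0.0291 with a random slide block, 0.0275 with the liver channel alone and 0.0333 with array weights. *Trp53inp1*, which aids p53 phosphorylation, differed by 0.55 (SE 0.23), and *Polk*, a polymerase that copies past bulky adducts, by 0.56 (SE 0.21). *Bax*, a mitochondrial pore protein of apoptosis, differed by 0.46 (SE 0.24, interval -0.05 to 0.97), and *Tnfrsf10b*, a death receptor, by 0.36 (SE 0.12). *Perp* had the only negative difference of the list, at -0.11 (SE 0.13).

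**Figure D3:**
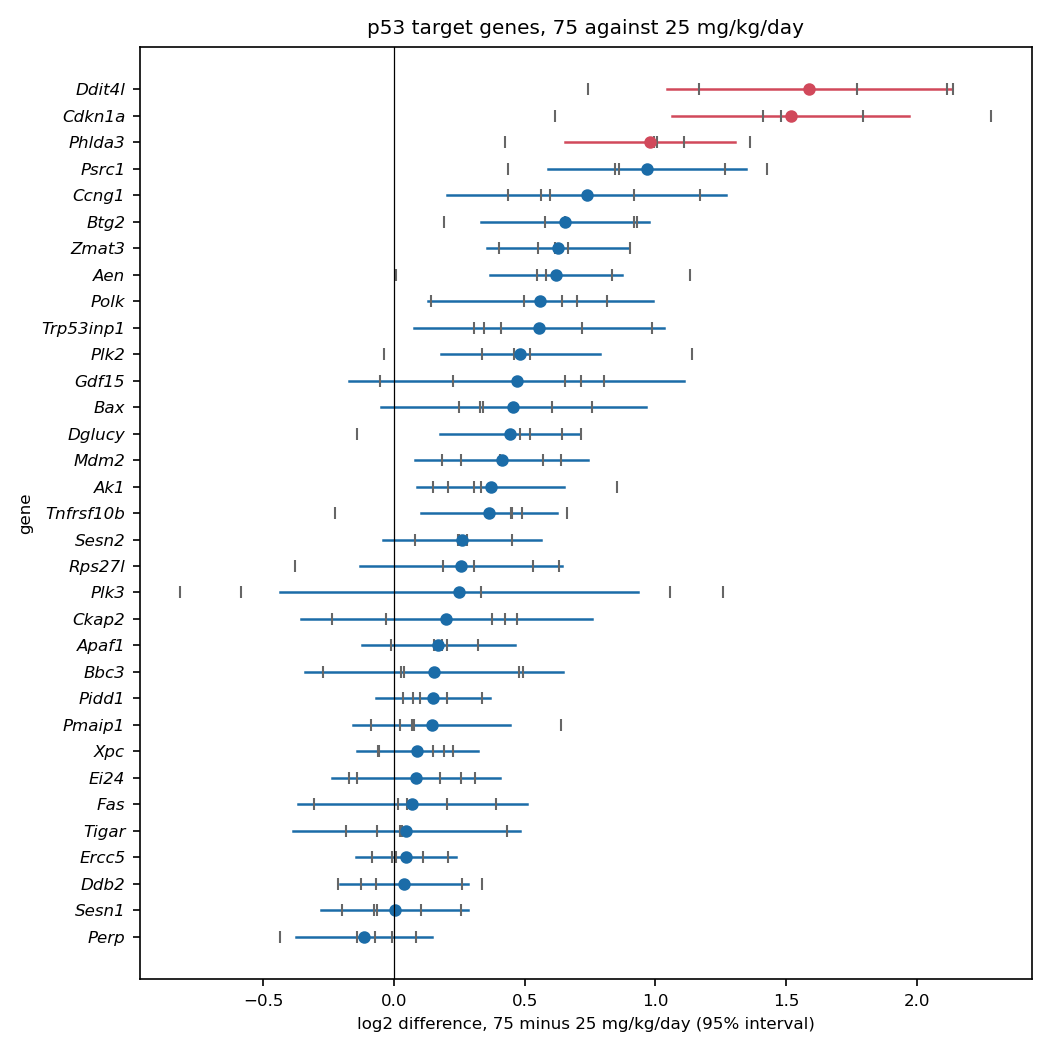
Log2 differences between 75 and 25 mg/kg/day of the 33 present p53 target genes are shown as points with 95% intervals (horizontal lines), and grey ticks give the difference on each of the 5 slides. The 3 called genes (red) range from 0.98 to 1.59, and *Perp* alone has a point below 0.

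The highest difference of any called probe was that of *Cyp3a44*, a cytochrome P450 of the drug-metabolizing CYP3A subfamily on chromosome 5 that mouse liver makes mainly in females. The called probe read 0.83, 1.01, 0.33, 1.15 and 0.73 at 25 mg/kg/day and 3.22, 4.31, 3.70, 3.44 and 2.26 at 75 mg/kg/day. The lowest array of the higher dose, replicate 20, lay above every array of the lower dose. The difference was 2.58 (SE 0.40, a fold of 5.97, adjusted p = 0.0153 by limma), and without replicate 10, 17 or 18 the adjusted p was 0.0542, 0.0676 and 0.0564. With the processed signals it was 0.0736. A second and much brighter probe of *Cyp3a44* showed no such step, at 5.76 to 6.15 and 5.77 to 6.28, a difference of 0.08 (SE 0.26, interval -0.46 to 0.61) that was -0.11 with the liver channel alone. CYP3A transcripts resemble each other closely, and which transcripts each probe binds was not tested.

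Of 26 present CYP2A, CYP2B, CYP2C and CYP3A enzymes, 19 were higher and 0 were called, with a median of 0.11, each gene being given by its brightest probe. The largest difference was that of *Cyp2b13*, which read 3.06 to 4.63 and 4.19 to 4.85 and differed by 0.76 (SE 0.40, adjusted p = 1), while a dimmer probe differed by 0.19 (SE 0.51). *Cyp2b9* read 5.05 to 6.02 and 5.65 to 6.10 (difference 0.47, SE 0.23), *Cyp2c38* differed by 0.62 (SE 0.23, adjusted p = 1; 1.81 with the processed signals) and *Cyp2c40* by 0.11 (SE 0.24; 0.73 with the liver channel alone). These genes encode steroid and drug hydroxylases. Of 20 glutathione transferases, which join glutathione to reactive products such as diol epoxides, 15 were higher and 0 were called, with a median of 0.08. *Gstm4* differed by 0.40 (SE 0.13), *Gstm3* by 0.29 (SE 0.18), *Gstm7* by 0.22 (SE 0.14) and *Gsta2* by -0.49 (SE 0.27).

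The aryl hydrocarbon receptor binds BaP. Of 9 present genes of its battery, 6 were higher and 0 were called, with a median of 0.06, which was -0.02 without replicate 16. *Cyp1a1*, the classical target, read 0.08 to 0.48 at 25 mg/kg/day and 3.64 on replicate 16 against 0.07 to 0.49 on replicates 17 to 20. Its difference of 0.66 (SE 0.45, adjusted p = 1) rested on that array and was -0.02 without it. *Cyp1a2*, which liver makes constitutively, differed by 0.06 (interval -0.27 to 0.39), and by -0.02 without 25 mg/kg/day replicate 7. *Nqo1*, a quinone reductase shared with NRF2, differed by 0.58 (SE 0.13, adjusted p = 0.255) without overlap of the groups. *Ahrr*, the repressor of the receptor, differed by 0.21 (SE 0.12).

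Of 18 NRF2 targets, the genes of the antioxidant response, 10 were higher and 0 were called, with a median of 0.06. Of 21 genes of nucleotide excision repair and translesion synthesis, 16 were higher and 0 were called, with a median of 0.05.

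*Ltc4s* had the smallest p of all probes. The gene, on chromosome 11, encodes leukotriene C4 synthase, which joins glutathione to a fatty acid epoxide to make an inflammatory lipid. It read 0.43, 0.54, 0.13, 0.09 and 0.74 at 25 mg/kg/day and 1.86, 3.15, 2.55, 2.04 and 1.93 at 75 mg/kg/day. The gap between the highest array of the lower and the lowest of the higher dose was wider than either group's SD, 0.27 and 0.54. The difference was 1.92 (SE 0.22, a fold of 3.78, adjusted p = 0.000836 by limma), and it was called in each fit that left out an array, with the highest adjusted p at 0.00596 without replicate 9. Under the other settings the difference was 1.57 to 2.79. The probe was dim, standing well above background on 4 of 5 arrays at 25 and 5 of 5 at 75 mg/kg/day. Of 11 genes of leukotriene and prostaglandin synthesis, 10 were higher but only *Ltc4s* was called, with a median of 0.10. For comparison, 0.077% of all 12986 genes were called higher and 7052 were higher.

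*Marco*, on chromosome 1, encodes a scavenger receptor of macrophages for bacteria and particles. Its ratios were 3.58, 2.70, 2.74, 3.11 and 2.35 at 25 mg/kg/day and 4.08, 4.15, 4.37, 5.76 and 4.62 at 75 mg/kg/day. The groups did not overlap, and here replicate 19 rather than 17 or 18 was the highest array. The difference was 1.70 (SE 0.30, adjusted p = 0.0297 by limma), and its call was lost without any of replicates 7, 8, 9, 10, 17, 18 and 20, the highest adjusted p being 0.116 without replicate 10. It was also lost with the 10 arrays alone (0.235), without the presence filter (0.0563), without background subtraction (0.0527), with the processed signals (0.0736), with the liver channel alone (0.0598) and with ratios scaled between arrays (0.0655). The other Kupffer cell and macrophage markers did not follow it: of 20 present, *Marco* included, 9 were higher, *Marco* alone was called and the median was -0.00. Among all 12986 genes 0.077% were called higher and 7052 were higher. *Cd163*, a hemoglobin scavenger receptor, differed by -0.65 (SE 0.20, adjusted p = 1), *Vsig4*, a complement receptor, by -0.28 (SE 0.31), and *Lyz2*, lysozyme of myeloid cells, by 0.65 (SE 0.25). In whole liver, fewer cells of a type and less RNA per cell cannot be told apart.

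*Mmrn2*, on chromosome 14, encodes a multimerin of the endothelial matrix. It had the highest ratios of the called transcripts, at 5.59, 5.55, 5.47, 5.52 and 5.30 at 25 mg/kg/day and 6.22, 6.62, 6.50, 6.06 and 6.52 at 75 mg/kg/day. The spread within groups was small, with an SD of 0.11 and 0.23, and all arrays of the higher dose were above all of the lower. The difference was 0.90 (SE 0.14, adjusted p = 0.0163 by limma), and the adjusted p was 0.0738 without replicate 17, 0.0719 without 10, 0.0624 without 18 and 0.0579 without 9. Its call was also lost with the processed signals (0.0826) and with ratios scaled between arrays (0.832), where the difference was 0.89.

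The Ly-6C transcript, a probe named only as the accession D86232, reports a surface antigen of endothelial cells and monocytes. It read -1.36, -1.84, -2.20, -1.66 and -1.87 at the lower and -1.30, -0.62, -0.90, -0.99 and -0.85 at the higher dose. Replicate 16 lay just above the highest array of the lower dose, replicate 6. The difference was 0.86 (SE 0.16, adjusted p = 0.0452 by limma), and leaving out any array but replicate 6 or 16 lost the call, with the highest adjusted p at 0.213 without replicate 17. It was also lost with the 10 arrays alone (0.251), without the presence filter (0.0657), without background subtraction (0.0599), with the processed signals (0.0804), with the authors' LOWESS ratios (0.0772), with the liver channel alone (0.102) and with ratios scaled between arrays (0.143).

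Of 36 present endothelial markers, 30 were higher, 1 was called (*Mmrn2*), 16 were higher on all 5 slides and 9 had an unadjusted p under 0.05 and a higher ratio, with a median of 0.18 (0.03 to 0.36 on the slides). Over all genes 0.077% were called higher, 5.07% were higher on all 5 slides and 1.67% had such a p. *Lyve1*, a hyaluronan receptor of sinusoidal endothelium, read 1.64 to 3.52 at 25 and 3.26 to 4.84 at 75 mg/kg/day. It differed by 1.75 (SE 0.40, adjusted p = 0.266 by limma) and passed with slides blocked (adjusted p = 0.0289, or 0.0316 as a random block) or with array weights (0.0389), being higher on 5 of 5 slides while the groups overlapped. A dimmer *Lyve1* probe differed by 0.54 (SE 0.12, adjusted p = 0.244) and was not called. *Icam2*, an adhesion molecule, differed by 0.47 (SE 0.13), *Thbd*, thrombomodulin, by 0.50 (SE 0.22), and *Egfl7* by 0.31 (SE 0.11), none of them called. In the other direction, 6 of the 36 markers were lower, down to -0.35, and 1 was lower on all 5 slides (3.25% over all genes). The most abundant sinusoidal marker, *Clec4g*, differed by 0.21 (SE 0.18).

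*Ccnd1*, on chromosome 7, encodes cyclin D1, which drives cells out of G1. Its ratios were -2.06, -1.67, -2.04, -1.92 and -2.27 at 25 mg/kg/day and -1.17, -1.11, -1.20, -1.27 and -0.075 at 75 mg/kg/day. Without overlap between the groups, 4 arrays of the higher dose lay close together and replicate 20 stood far above them. The difference was 1.03 (SE 0.18, a fold of 2.04, adjusted p = 0.0297 by limma). The call was lost without any of replicates 6, 8, 9, 10, 17 and 18, the highest adjusted p being 0.116 without replicate 10, with the 10 arrays alone (0.406), the processed signals (0.0548), the liver channel alone (0.0792) and ratios scaled between arrays (0.0833), but it held without replicate 20. Of 32 present genes of mitosis and DNA replication, 29 were higher and *Ccnd1* alone was called, with a median of 0.12 (-0.04 to 0.33 on the slides). The share called higher over all genes was 0.077%, and 7052 of all 12986 genes were higher. *Ccna2*, a cyclin of S phase, differed by 0.32 (SE 0.15) without overlap, and *Ccnb1*, the mitotic cyclin, by 0.33 (SE 0.14), both at an adjusted p of 1.

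*Cplane1*, a gene of cilium formation reported by the probe named BC058107, was among the most stable calls. It read -1.48, -1.30, -0.91, -1.23 and -0.96 at 25 mg/kg/day and -0.17, 0.82, 1.24, 0.21 and 0.39 at 75 mg/kg/day. Replicates 17 and 18 were again the highest arrays and replicate 16 the lowest of its group. The difference was 1.67 (SE 0.23, a fold of 3.19, adjusted p = 0.00331 by limma), with the highest adjusted p among fits that left out an array at 0.0215 without replicate 17.

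*1700007K13Rik*, on chromosome 2, also had replicates 17 and 18 as the highest arrays at 75 mg/kg/day and replicate 16 as the lowest. It read -0.96, -0.99, -0.95, -0.91 and -0.94 at 25 mg/kg/day, an SD of 0.03, and -0.28, 1.21, 1.46, 0.58 and 0.45 at 75 mg/kg/day, an SD of 0.68. The difference was 1.63 (SE 0.27, adjusted p = 0.0193 by limma), with an adjusted p of 0.088 without replicate 17, and it was also lost without any of replicates 6 to 10 or 18 and with the 10 arrays alone (0.128).

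*Endou*, on chromosome 15, encodes a uridylate-specific endoribonuclease. It read -0.94, -0.93, -0.86, -1.01 and -0.92 at the lower and 0.12, 0.74, 0.36, -0.13 and -0.07 at the higher dose. The lower group was tight and the higher group lay wholly above it. The difference was 1.14 (SE 0.14, a fold of 2.20, adjusted p = 0.00165 by limma), and the highest adjusted p among fits that left out an array was 0.0101 without replicate 9.

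*Mapkapk3*, on chromosome 9, encodes a kinase that acts below the stress MAP kinases. It read -1.28, -0.85, -1.19, -1.37 and -1.07 at 25 and -0.63, -0.47, -0.57, -0.46 and -0.54 at 75 mg/kg/day. The groups did not overlap, and the higher dose had the smaller SD, 0.07 against 0.20, which held otherwise only for the Ly-6C transcript. The difference was 0.62 (SE 0.11, a fold of 1.53, adjusted p = 0.0393 by limma). Only the fits without replicate 7 or 16 kept the call among those that left out an array, and the highest adjusted p was 0.181 without replicate 17. The call was also lost with the 10 arrays alone (0.184), with ratios scaled between arrays (0.179) and, by its fold, with the authors' LOWESS ratios and the liver channel alone.

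Of the 15 called probes, 13 had a larger SD at 75 than at 25 mg/kg/day, with a median SD of 0.54 against 0.22. The offset of 50 added to the signals narrows the spread of dim ones, and all these probes had their lower ratios at 25 mg/kg/day. How much of the SD contrast comes from this was not tested. Replicate 16 was the lowest array of its group for 10 of the 15 and the highest for 0, while replicate 17 was the highest for 7 and replicate 18 for 5. Replicate 16 was thus the array with the high *Cyp1a1* ratio of 3.64 and the lowest *Cdkn1a* ratio of -1.15 at this dose. At 25 mg/kg/day no such array stood out, and replicate 8 was the highest for 7 of the 15 and the lowest for 2.

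The livers given 50 mg/kg/day (replicates 11 to 15), which neither mean used, lay between both doses for 15 of 15 called probes in their group means. These probes were called for a wide gap between 25 and 75 mg/kg/day, which makes a mean between them likely. It is therefore no independent evidence of a graded response, and the share over all probes is not given here. The share of the difference reached at 50 mg/kg/day was 14.4% to 72.0%, with a median of 39.1%. It was highest for *Marco*, with a mean of 4.12 ± 0.34 (SD, n = 5) at 50 against 2.90 ± 0.47 at 25 and 4.59 ± 0.69 at 75 mg/kg/day. It was lowest for *Ddit4l*, at 0.42 ± 0.28 against 0.20 ± 0.30 and 1.78 ± 0.76. In the olive oil controls the mean of a called probe was between 0.49 below and 0.18 above that at 25 mg/kg/day.

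**Figure D4:**
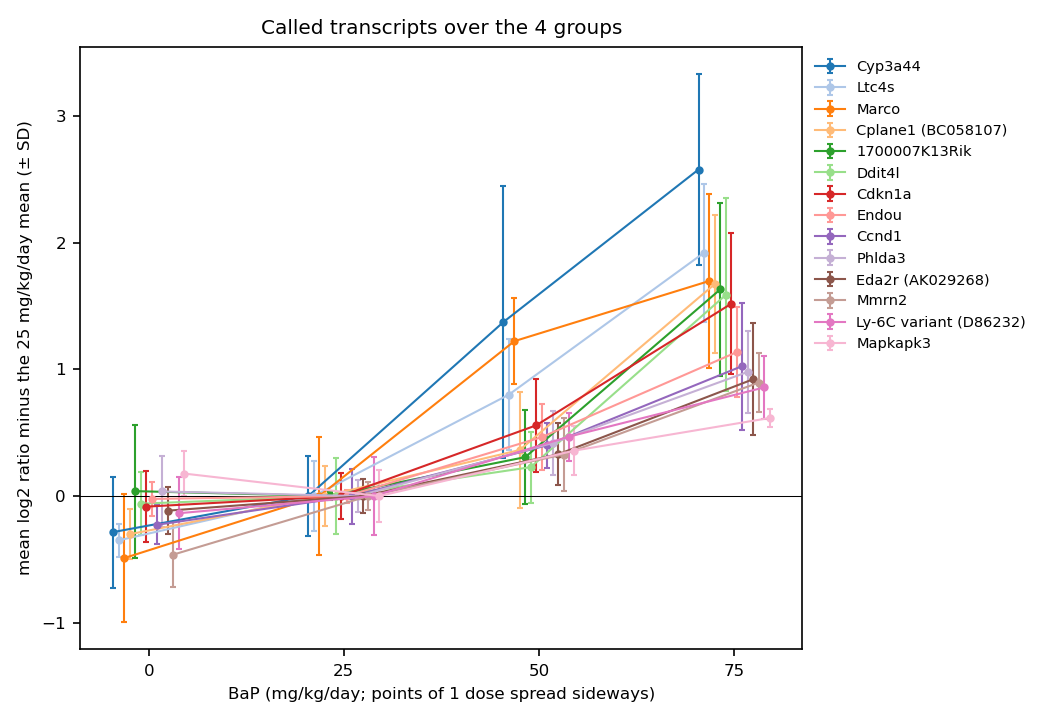
Group means of the log2 ratio of 14 called genes (1 probe each) are drawn relative to the 25 mg/kg/day mean, with the SD of 5 arrays as error bars, against dose (0 is olive oil). The means at 50 mg/kg/day lie between those at 25 and 75 for each gene. The genes were chosen for the gap between 25 and 75 mg/kg/day, which makes this likely.

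No transcript was called lower at 75 mg/kg/day by limma over all 20 arrays, and those with the smallest p and groups that did not overlap are given as not called. *Clic5*, which encodes an intracellular chloride channel protein, read 1.03 to 1.51 at 25 and 0.28 to 0.84 at 75 mg/kg/day, a difference of -0.81 (SE 0.17, adjusted p = 0.111 by limma), and a second, dimmer probe differed by -0.23. *Clic5* was the 1 transcript called lower with a random slide block (adjusted p = 0.0305) and with array weights (0.0332). *Ccr3*, a chemokine receptor of eosinophils, read 0.74 to 1.32 and 0.21 to 0.55, a difference of -0.66 (SE 0.15, adjusted p = 0.274). *Olig1*, a transcription factor best known from glial cells, differed by -0.86 (SE 0.24, adjusted p = 0.939). *Krt23*, a keratin, differed by -0.80 (SE 0.26) and *Saa3*, an acute phase amyloid, by -1.11 (SE 0.43), both at an adjusted p of 1. All 5 genes were lower on each of the 5 slides. *Nnmt*, which methylates nicotinamide, differed by -1.30 (SE 0.43, adjusted p = 1) and *Adamdec1*, a metalloprotease of macrophages, by -0.73 (SE 0.31), both lower on 5 of 5 slides with overlap.

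The slide block added calls beyond *Lyve1*. Among them were *Pltp*, a phospholipid transfer protein, at 0.70 (adjusted p = 0.35 without and 0.0107 with the block), *Cyp39a1*, an oxysterol hydroxylase, at 0.85 (1 and 0.0427), *Defb1*, a defensin, at 0.75 (0.136 and 0.0428), and a dimmer probe of *Plxna2*, a semaphorin receptor, at 0.66 (0.0577 and 0.0459). Of these, *Pltp* read -0.60 to 0.21 at 25 and 0.28 to 0.88 at 75 mg/kg/day, without overlap.

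The remaining lists gave no call. Of 24 stellate cell, fibroblast and matrix markers, 19 were higher, with a median of 0.16. *Col4a1*, a basement membrane collagen, differed by 0.41 (SE 0.12). Of 12 bile duct markers 10 were higher, with a median of 0.12. *Tff3*, a secreted trefoil peptide, differed by 1.70 (SE 0.34, adjusted p = 0.0861 by limma), and its reference channel also differed, by 0.55 (unadjusted p = 0.00302). With the liver channel alone, which leaves the reference out, *Tff3* differed by 2.10 (adjusted p = 0.0792), and with the processed signals by 0.53 (adjusted p = 1). It passed with a random slide block (0.0462), with array weights (0.00667), and without replicate 8 (0.0303) or 19 (0.0263).

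Among immune lists, 29 of 32 interferon response genes were higher, with a median of 0.15, and *Igtp*, a GTPase that guards against intracellular microbes, read 0.71 to 1.68 at 25 and 1.61 to 2.02 at 75 mg/kg/day, a difference of 0.74 (SE 0.19, adjusted p = 0.465). *Isg15*, a ubiquitin-like modifier, differed by 0.50 (SE 0.17). The list's median lay between -0.02 and 0.46 on the slides. Of 11 MHC class II genes 5 were higher (median -0.02), of 6 B cell markers 5 (0.04), of 9 T cell and NK cell markers 3 (-0.01), and of 12 neutrophil markers and cytokines 9 (0.07). *S100a9*, a calcium-binding protein of neutrophils, differed by 0.75 (SE 0.37).

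Of 17 fatty acid synthesis genes, 16 were higher, 5 of them on all 5 slides (5.07% over all genes), with a median of 0.16 and slide medians of 0.06 to 0.31. *Scd1*, a desaturase, differed by 0.62 (SE 0.32) and *Srebf1*, the transcription factor of the pathway, by 0.30 (SE 0.17), both at an adjusted p of 1. Of 23 cholesterol synthesis genes 16 were higher (median 0.15), of 24 PPAR alpha and fatty acid oxidation genes 12 (0.01), of 12 genes of glucose output and glycogen 6 (0.00), and of 17 bile acid genes 11 (0.12, or -0.04 with the liver channel alone). Female-biased liver genes had a median of 0.11 (11 of 17 higher) and male-biased ones -0.06 (9 of 22), the latter turning to 0.05 with the processed signals, to 0.01 without replicate 16 and to 0.02 without replicate 17.

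Of 21 immediate early genes 18 were higher, 2 without overlap and 6 with an unadjusted p under 0.05 and a higher ratio, with a median of 0.22 (0.04 to 0.41 on the slides). Over all genes 0.501% were higher without overlap and 1.67% had such a p. *Egr1*, a zinc finger factor induced within minutes of stimuli, read -3.48 to -1.71 and -2.57 to -0.52, a difference of 1.16 (SE 0.41, adjusted p = 1), and *Klf4*, a regulator of cell growth, differed by 0.65 (SE 0.25) without overlap. *Btg2* belongs to this list and to the p53 list. Of 18 circadian clock genes 5 were higher, with a median of -0.13 that ran from -0.57 to 0.23 on the slides. Of 17 ER stress genes 4 were higher (median -0.08, or 0.01 without replicate 18).

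Hepatocyte identity genes were close between the doses: 18 of 20 were higher, with a median of 0.09 (-0.01 with the liver channel alone), and their mean ratio on an array was 5.38 to 5.82 at 25 and 5.49 to 5.72 at 75 mg/kg/day. Of 27 acute phase and complement genes 20 were higher (median 0.08), of 18 pericentral and periportal genes 13 (0.08), of 22 TNF receptor and BCL2 family genes 18 (0.12), and of 15 genes of the growth hormone and IGF1 axis 10 (0.13). *Igf1*, the hepatic growth factor, differed by 0.13 (SE 0.12). The 9 present lung epithelium markers had a median of 0.00.

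**Figure D5:**
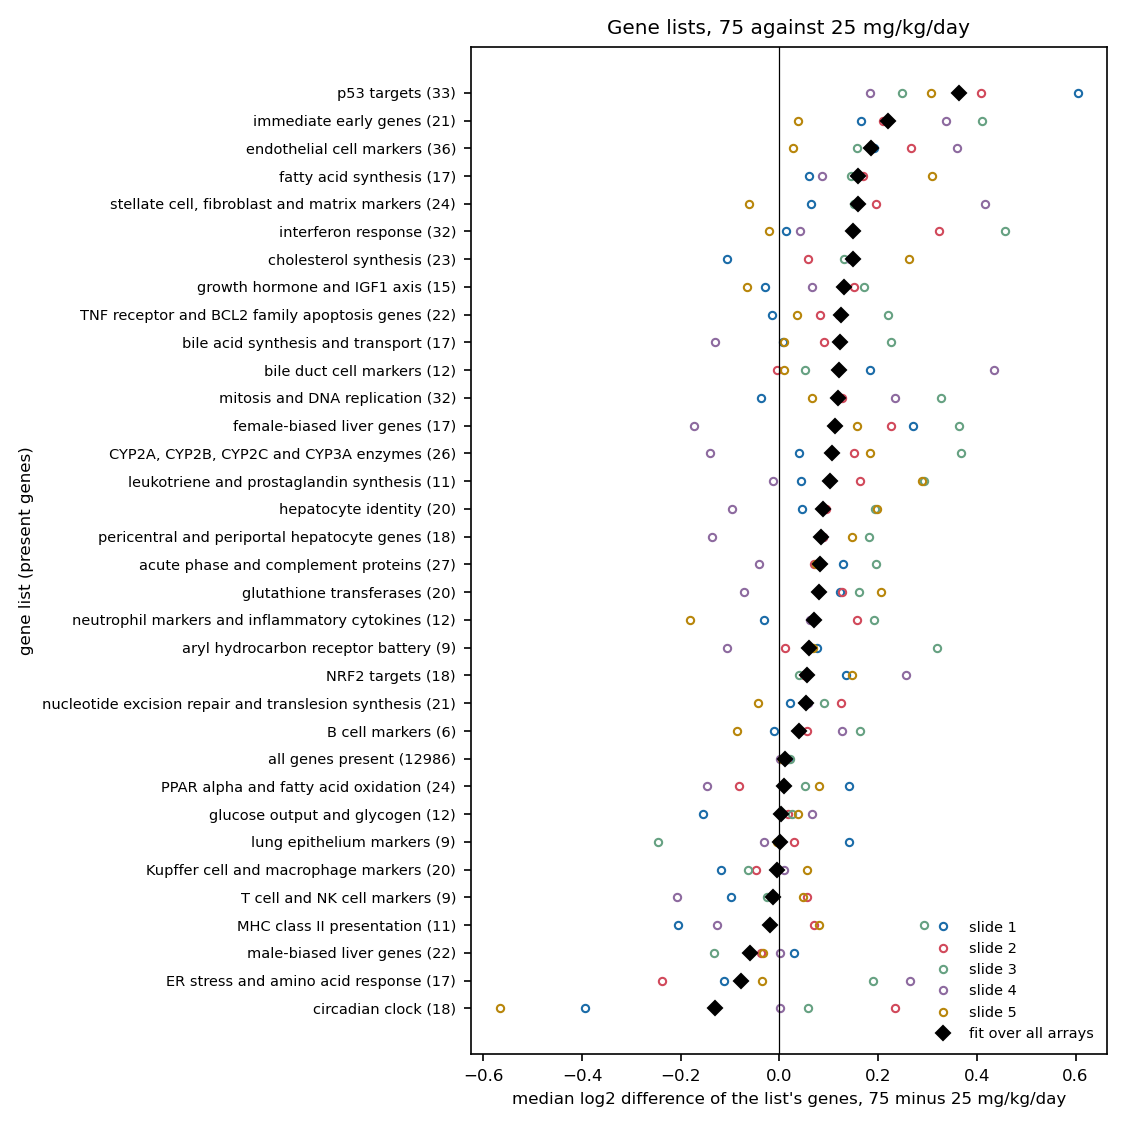
The median log2 difference between 75 and 25 mg/kg/day (horizontal) is given for each of the 33 gene lists and for all genes (vertical, with the number of present genes), as a diamond for the fit over all arrays and rings for the 5 slides. The p53 targets lie farthest right at 0.36, and circadian clock genes farthest left at -0.13 with rings on either side of 0.

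Deviations from the group means correlated across probes, which are not independent replicates, at r = 0.19 to 0.67 between slide mates (median 0.35) and at -0.57 to 0.49 (median -0.22) between arrays of different slides. Of the 20 pairs on different slides 3 lay above 3 of the 5 slide mates, and since deviations sum to 0 within a group, positive pairs push others below 0. The consensus correlation within slides was 0.24. In the reference channel, which holds no dose, 0 transcripts were called between the arrays of the doses by limma, 134 probes had an unadjusted p under 0.05 and 25 a fold over 1.5. The called probes differed there by at most 0.18 on the log2 scale.

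Over whole profiles the doses did not separate. The mean distance (1 minus Pearson r of probe-centred ratios) between the doses minus that within them was -0.0446 (exact one-sided permutation p = 0.619 over 252 relabellings, where the smallest possible is 0.00794). Free relabelling ignores the slides. Likeness of slide mates, which are of different doses, lowers this value, so the test cannot decide whether whole profiles differ by dose. With the slide means removed the distance was 0.304. But this centring makes slide mates opposite to each other, so that a value above 0 arises with no dose difference. Against swaps of the labels within slides, which keep mates apart, the exact permutation p was 0.1875 over 32 assignments, where no p under 0.0625 can be had.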

How the data were processed

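Liver and reference RNA were measured on 20 arrays, 5 in each of 4 groups taken from the exposure labels. The comparison of 75 with 25 mg/kg/day was made by limma over all 20 arrays (16 residual degrees of freedom), two-sided, with Benjamini-Hochberg adjustment over all present probes.

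The authors deposited, per the file headers, median spot and background intensity values in both channels from Feature Extraction 10.1.1.1, not normalized, together with processed intensity values after the software's own background subtraction and dye normalization. They also deposited log2 ratios normalized by LOWESS, used as an alternative. Scores marking spots as outliers, saturated (0 spots) or well above background were deposited beside them. Here median intensities were corrected by normexp with offset 50, then loess-normalized within arrays, stripped of outlier spots and averaged per probe (41174 probes). Against the authors' own ratios, r across probes was 0.994 to 0.996. The fit used the values left where a spot was an outlier, which touched 29 present probes. The offset makes differences of dim probes smaller.

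A probe was present when the liver signal exceeded the trimmed mean (trim 5%) plus 3 trimmed SDs of 153 negative control spots on 4 or more of the 5 arrays in any group. Symbols came from RefSeq accessions (23374 probes; GRCm38.p6) and, for 3 called probes with other accessions, from the annotation the study gave them. A gene with several probes is given by its brightest present probe, and others where they differ. The genes named are up to 12 called per direction with no overlap of groups, the uncalled ones of smallest p in the open places, members of each list that were called or moved most, and genes named in earlier accounts of these data. *Cyp39a1*, *Defb1*, *Pltp*, *Plxna2*, *Icam2*, *Egfl7*, *Ahrr*, *Tnfrsf10b* and *Trp53inp1* were named after their values were seen. The members and lists were chosen with earlier results of these data known.

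R 4.3.3, limma 3.58.1, statmod 1.5.0, data.table (version 1.17.8), Python 3.11.15 and matplotlib 3.10.9 were used. The fit was tested on simulated data with independent noise for each array and no slide effect. That simulation does not cover the treatment of slides. The study dropped 1 unnamed sample, but no array was dropped here. Some genes are not reported here. The design text gives 24 mg/kg for the lowest dose, and the labels' 25 mg/kg was used. The number of arrays limits the precision; the median SD within a group was 0.20 on the log2 scale. Alternatives changed the background correction, normalization, filter, slide block, prior, weights and arrays. Scaling between arrays, the 10 arrays with a slide block, and within-slide swaps were chosen after seeing the data.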

Additional observations from a re-analysis of the deposited data

Results flagged for a closer look

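For 10 of 160 groups of 5 arrays, 1 array lay apart from the other 4 by more than Dixon's limit, where chance gives about 8 (1 in 20). *Cyp1a1* was 3.64 on 75 mg/kg/day replicate 16 and at most 0.49 on the others. Replicate 20 at 75 mg/kg/day was the highest for *Ccnd1* at -0.075, for *Ccna2* at -3.19, for *Pltp* at 0.88 and for *Moxd1*, a monooxygenase-like gene not treated above, at 0.75, and the lowest for *Col4a1* at -1.99. Replicate 19 at 75 mg/kg/day was the lowest for *Scd1* at 3.30, for *Cyp2b9* at 5.65 and for *Tff3* at 3.23. *Btg2* was highest on 25 mg/kg/day replicate 7, at -1.50.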

How the results depend on the processing

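The groups share no replicate numbers, and the slides, each with 1 array of each dose, paired the arrays. Against 15 higher and 0 lower transcripts, slide as a fixed block gave 21 and 0, a random slide block gave 29 and 1, array weights 28 and 1, the 10 arrays alone 6 higher, scaling between arrays 8, and the 10 arrays with a slide block 0 (limma; 1727 probes at an unadjusted p under 0.05). Leaving out each array gave 4 to 21 higher. The distance between the doses was -0.0446, and 0.304 with slide means removed (also with swaps within slides), a sign that the centring itself gives. It was -0.0950 to 0.0271 with an array left out, above 0 without replicate 7 (0.0271) or 18 (0.0111). Other settings gave 10 to 16 higher and 0 lower, and 0 in the reference channel. Of the genes named, 3 turned direction: the bright *Cyp3a44* probe (-0.11, liver channel alone), *Cyp1a2* (-0.016 to 0.134 with an array left out, below 0 without replicate 7) and *Cyp1a1* (-0.022 to 0.871, below 0 without replicate 16). Of the called probes, those other than *Ltc4s*, *Cplane1*, *Cdkn1a* and *Endou* lost the call without at least 1 array, and the causes were not tested. The Aquantile scaling leaves the ratios as they are, so no fit was made on it.

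The signal stood at 1.40 to 1.60 times background in the median, so dim probes carry little information, and with 5 mice a dose a difference that misses the threshold is not shown to be absent.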
